A study of Homo sapiens with 16 samples.

Results

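Tubulin mRNAs were followed in U2OS, a human osteosarcoma cell line, through 8 of the 28207 human genes counted. Of these, 5 encode beta-tubulin (TUBB, TUBB2A, TUBB3, TUBB4B and TUBB6) and 3 encode alpha-tubulin (TUBA1A, TUBA1B and TUBA1C). The genes were taken by symbol from a list chosen by measured values of these same libraries, though which values chose them is not stated. What follows therefore describes the listed genes, its tests are those of a fit across all genes, and none of them is independent support for the choice. Total RNA was sequenced in 16 libraries, 2 for each of 8 groups: zdna1 CL and zdna1 CC, zdna2 CL and zdna2 CC, zdna3 CL and zdna3 CC, and zdna4 CL and zdna4 CC. The labels give these names as genotypes of the same cell line and explain neither the number nor the arm, so each difference between arms is stated as CL over CC and no group is called a control. The series title names the transcription factor MYC, the histone chaperone FACT and left-handed Z-DNA. The labels give no treatment or time and do not say whether a group is 1 clone. They do not say either whether the 2 libraries of a group are separate cultures, so p-values measure the spread between these libraries, which may be technical.

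Microtubules are built from heterodimers of alpha- and beta-tubulin, and human cells carry several genes, called isotypes, for each chain. The chains are folded with the help of prefoldin, the CCT ring and the tubulin cofactors, and they need a matched supply of both. Tubulin mRNAs are also under autoregulation: the protein TTC5 recognises the first amino acids of a growing tubulin chain on the ribosome and, with SCAPER and the CCR4-NOT subunit CNOT11, brings about decay of the mRNA when free tubulin is abundant.

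The first bases of each coding sequence are shown because they encode the stretch that TTC5 reads. They are printed 5′ to 3′ from the GENCODE transcripts of build GRCh38, 30 bases each, with the first 12 bases, which encode the first 4 amino acids, in capitals.
TUBB: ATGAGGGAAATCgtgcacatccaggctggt
TUBB2A: ATGCGCGAGATCgtgcacatccaggcgggc
TUBB3: ATGAGGGAGATCgtgcacatccaggccggc
TUBB4B: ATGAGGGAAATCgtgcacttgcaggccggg
TUBB6: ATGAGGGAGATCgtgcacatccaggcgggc
TUBA1A: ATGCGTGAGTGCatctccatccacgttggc
TUBA1B: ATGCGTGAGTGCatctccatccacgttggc
TUBA1C: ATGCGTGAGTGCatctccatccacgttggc
The 3 alpha-tubulin genes had the same 30 bases. The 5 beta-tubulin genes differed: TUBB and TUBB4B had 1 form of the capital stretch, TUBB3 and TUBB6 another, and TUBB2A its own. Over whole coding sequences, the alpha genes were 96.3% to 97.3% identical to each other and the beta genes 81.3% to 88.8%.

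Short reads can therefore be hard to place. Of all windows of 100 bases in each transcript, 37.2% of TUBA1B, 18.6% of TUBA1A and 11.5% of TUBA1C occurred in a gene elsewhere. The other 2 alpha members held all of these windows for TUBA1A and TUBA1C, and 32.1% of all windows for TUBA1B. For TUBB the share was 5.10%, shared with the pseudogene TUBBP1 and with 0 windows in another member. It was 5.15% for TUBB3, 2.86% for TUBB4B and 0% for TUBB6. TUBB2A shared 56.4% of its windows, mostly with its neighbour TUBB2B, and levels of TUBB2A and of the 3 alpha genes are therefore uncertain. In the files' annotation, 638 exon bases of TUBB6 overlap AFG3L2 on the other strand and 108 of TUBB4B overlap FAM166A. Counting used no strand, so reads there cannot be told apart.

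**Figure D1:**
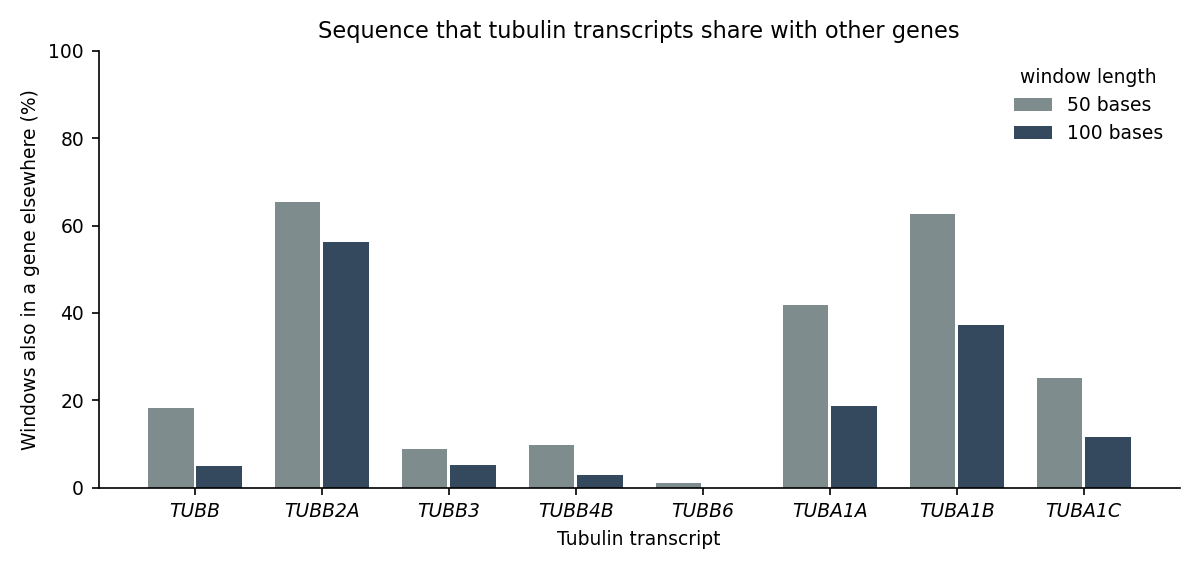
Share of all windows of a tubulin transcript that also occurred in a gene elsewhere in the genome, in percent (vertical axis), for each of the 8 transcripts (horizontal axis) and for windows of 50 and 100 bases (bar colours). TUBB2A stands highest at 65.5% and 56.4%, TUBA1B follows at 62.7% and 37.2%, and TUBB6 is lowest at 0.993% and 0%.

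Between 39335 and 310187 reads per library fell in human genes, so that 1 read stood for 3.22 to 25.4 CPM before TMM scaling. CPM, the unit of level used here, scales the reads of a gene to the reads in human genes of its library. Those totals were adjusted by the TMM factor of the library. In the files' hg19 coordinates TUBB lies on chromosome 6 at 30688129 to 30693195 (plus strand) and TUBA1B on chromosome 12 at 49521565 to 49525178 (minus strand), beside TUBA1A (49578578 to 49583107, minus strand) and TUBA1C (49621709 to 49668383, plus strand). TUBB2A lies on chromosome 6 at 3153901 to 3157778 (minus strand), TUBB3 on 16 at 89988333 to 90002505, TUBB4B on 9 at 140135739 to 140138159 and TUBB6 on 18 at 12307668 to 12329824 (these 3 on the plus strand). Levels sum the reads over all annotated exons of a gene. Markers of the mesenchymal line were present: 7 of 11 exceeded 50 CPM on average, among them VIM with 1593 CPM. Of 9 neuronal markers, 1 did so, NEFL with 93.1 CPM, and ELAVL3 had 0 reads in all 16 libraries. Of 5 epithelial and 6 blood markers, 0 did so. Outside the nose, olfactory receptor genes are seldom transcribed, and the libraries of zdna4 CC stood apart in them: 401 such genes summed to 1538 and 1611 CPM in zdna4 CC, against 55.9 to 401 CPM in the other libraries. Reads on the contig named after the number, added to the genome in counting, also moved with the arm. They made up 0.326% to 0.403% of assigned reads in zdna1 CL and 25.7% to 27.3% in zdna1 CC, and 20.8% to 21.6% in zdna3 CL and 87.4% to 87.7% in zdna3 CC. In zdna4 the share was 1.28% to 1.40% in CL and 13.8% to 17.8% in CC, and in zdna2 it was 60.04% to 61.1% in CL and 63.4% to 64.3% in CC. They are left out of every level here, and their part in the differences below was not tested. Fewer cells of a kind and less RNA per cell cannot be told apart in these bulk libraries.

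TUBB and TUBA1B carried most of the tubulin mRNA. Per kilobase of annotated exons, TUBB averaged 639 CPM per kb over the 16 libraries (range 433 to 964) and TUBA1B 655 CPM per kb (range 431 to 812). Both are the common isotypes of dividing cells. Next came TUBB4B with 186 CPM per kb, TUBA1C with 157 CPM per kb and TUBB6 with 129 CPM per kb. The length used was that of all annotated exons in the files, 3309 bases for TUBB6 and 1563 for TUBB4B. The GENCODE transcripts used for the windows above have 2064 and 1637 bases. The order of TUBB4B, TUBA1C and TUBB6, and the shares and the ratio of alpha to beta below, depend on the length chosen. TUBA1A, known for its role in the developing brain, stood at 45.7 CPM per kb, TUBB3, used as a neuronal marker, at 42.1 CPM per kb, and TUBB2A at 13.6 CPM per kb. The 8 genes together held 9351 reads, of which 4087 fell in TUBB.

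TUBB2A was too weak to test. It had 0 to 5 reads in each library, and its highest level was 71.3 CPM in zdna3 CC replicate 1. In the 2 libraries with 0 reads, zdna2 CL replicate 2 and zdna4 CC replicate 2, a count of 0 allows up to 17.2 and 79.2 CPM. The other 7 genes passed the filter of 50 CPM on average over all libraries.

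Among the listed genes, the leading isotype of each family was the same in all 16 libraries. Shares are of the summed level per kb of the 5 beta or the 3 alpha genes listed. TUBB made up 63.0% of the beta-tubulin signal per kb on average (SD 6.58, n = 16), with a low of 50.4% in zdna4 CC replicate 2 and a high of 74.3% in zdna2 CC replicate 1. TUBB4B followed with 18.6% and TUBB6 with 13.1%, with their highest shares in zdna4 CC, 32.1% for TUBB4B in replicate 2 and 17.5% for TUBB6 in replicate 1. TUBA1B made up 76.3% of the signal of the listed alpha genes (SD 3.69, n = 16), TUBA1C 18.5% and TUBA1A 5.26%. TUBA3C, an alpha-tubulin gene outside the list, is in none of these shares. It averaged 106 CPM per kb, above TUBA1A at 45.7 CPM per kb. The share of TUBA1B had a low of 70.2% in zdna4 CC replicate 2 and a high of 82.1% in zdna1 CC replicate 1.

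**Figure D2:**
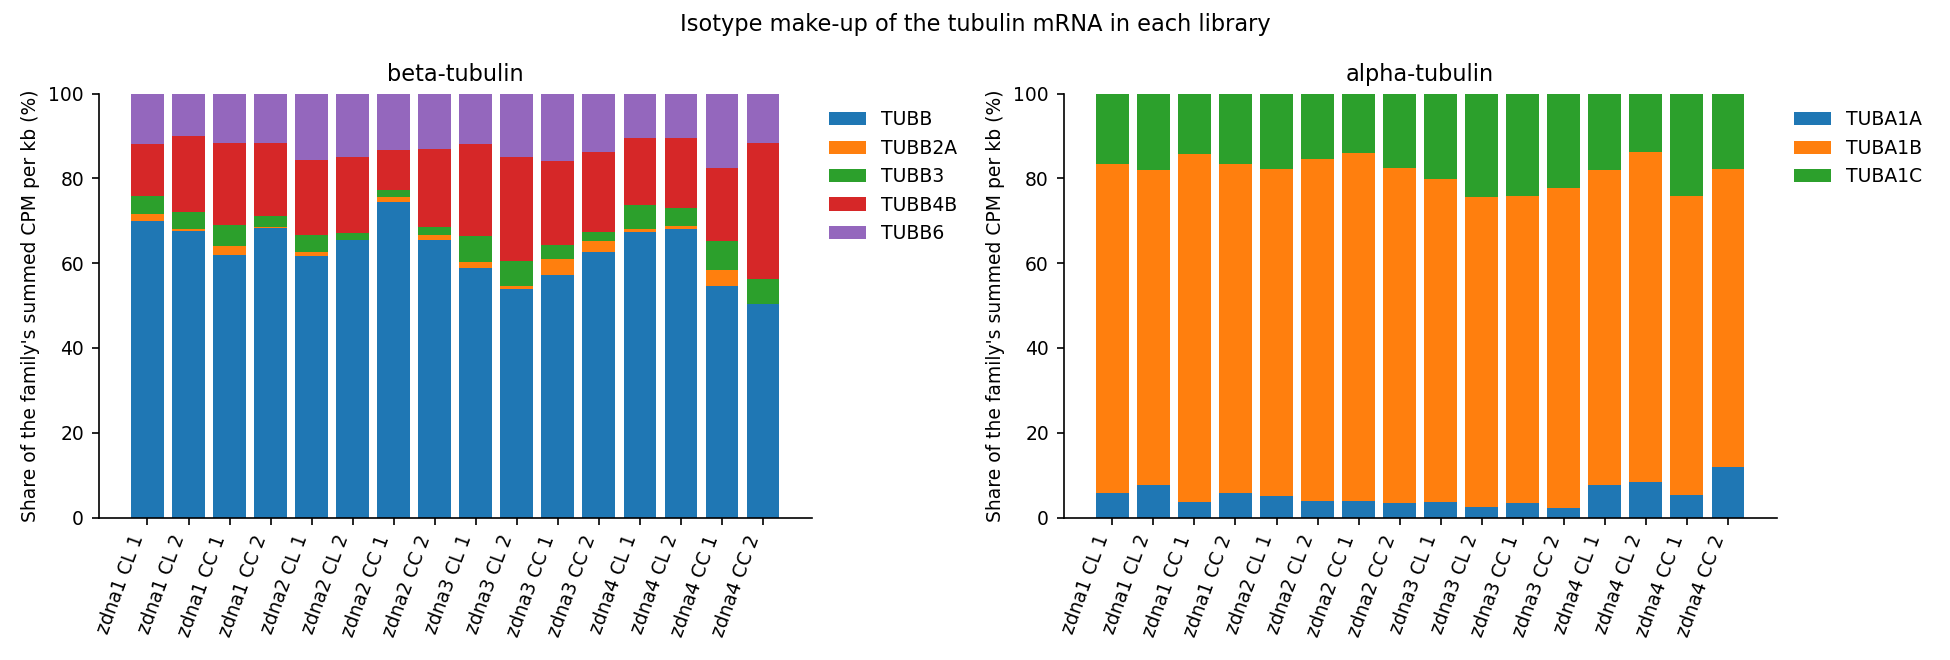
Share of each isotype in the summed CPM per kb of the 5 beta-tubulin genes (left) and the 3 alpha-tubulin genes (right), in percent, with 1 bar per library. TUBB is the largest beta part in every bar, between 50.4% and 74.3%, and TUBA1B the largest alpha part, between 70.2% and 82.1%.

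The summed level per kb of the listed alpha genes stood close to that of the listed beta genes. Genes outside the list, such as TUBA3C (106 CPM per kb) and TUBB2B (19.7 CPM per kb), are in neither sum. The ratio of alpha to beta averaged 0.865 over the libraries and ran between 0.730 and 1.16. It was 0.804 ± 0.0148 in zdna1 CL and 0.965 ± 0.0166 in zdna1 CC (SD, n = 2 each), and 0.748 ± 0.0253 in zdna4 CL and 0.786 ± 0.0221 in zdna4 CC. In zdna1 and in zdna4 the ratio in CL was lower than in CC by more than either SD, with the smaller gap in zdna4. These SDs rest on 2 libraries each, and the ratio was not tested. The ratio was 1.03 ± 0.182 in zdna2 CL and 0.960 ± 0.0399 in zdna2 CC, and 0.827 ± 0.0189 in zdna3 CL and 0.799 ± 0.0475 in zdna3 CC. Both of these differences were smaller than the larger SD of the pair.

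The sum of the 8 mRNAs lay above CC in both CL libraries of zdna1, zdna2 and zdna4 and below CC in both of zdna3. It was 5489 and 5425 CPM in zdna1 CL, against 4415 and 4055 CPM in zdna1 CC, and 5877 and 5622 CPM in zdna4 CL, against 3346 and 3645 CPM in zdna4 CC. Without TUBB the other 7 summed to 3111 and 2965 CPM in zdna4 CL, against 2105 and 2351 CPM in zdna4 CC. The gaps were smaller in the other numbers: the 8 summed to 3574 and 3612 CPM in zdna2 CL, against 3521 and 3369 CPM in zdna2 CC, and to 4415 and 4222 CPM in zdna3 CL, against 4547 and 4524 CPM in zdna3 CC. The zdna3 order flips on the deposited scale, where the sum of the signal was 62.2 and 58.8 in CL, against 36.6 and 35.2 in CC. These sums are descriptions without a test.

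Within each number, CL was set against CC. TUBB, the main beta isotype, was higher in CL in zdna1 and zdna4 and not in zdna2 and zdna3. In zdna1 it stood at 2563 and 2491 CPM in CL, against 1764 and 1751 CPM in CC. In zdna4 it stood at 2765 and 2657 CPM in CL, against 1241 and 1294 CPM in CC. Both CL libraries of these numbers were above both CC libraries, and the 4 were the highest of all 16. In zdna2 it stood at 1424 and 1380 CPM in CL, against 1614 and 1413 CPM in CC, with the groups overlapping. In zdna3 it stood at 1777 and 1521 CPM in CL, against 1783 and 1881 CPM in CC, with both CL libraries below both CC libraries.

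By limma on log2 of CPM plus 10, with Benjamini-Hochberg adjustment over the 4632 genes tested, TUBB rose by 0.52 (SE 0.0964, adjusted p = 5.87e-04) in zdna1 CL and by 1.09 (SE 0.156, adjusted p = 4.54e-06) in zdna4 CL on the log2 scale, folds of 1.43 and 2.13. In zdna2 the change was -0.11 (SE 0.0977, adjusted p = 0.939) and in zdna3 -0.16 (SE 0.156, adjusted p = 0.976), which turned to 0.66 on the deposited scale, where the median of all genes stood at 0.72 in this comparison. The test that the 4 differences are equal gave an adjusted p of 1.03e-05 for TUBB, and 1 of the 7 tested members passed it, against 0.864% of all genes tested. For the other 6 members the adjusted p of this test ran between 0.367 and 0.966, so unequal differences were not shown for them. With 2 libraries in each group the smallest two-sided p of an exact permutation test is 0.333, and the calls depend on limma sharing its estimate of spread among genes. The zdna1 call was lost without zdna1 CC replicate 1 (adjusted p = 0.0514).

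**Figure D3:**
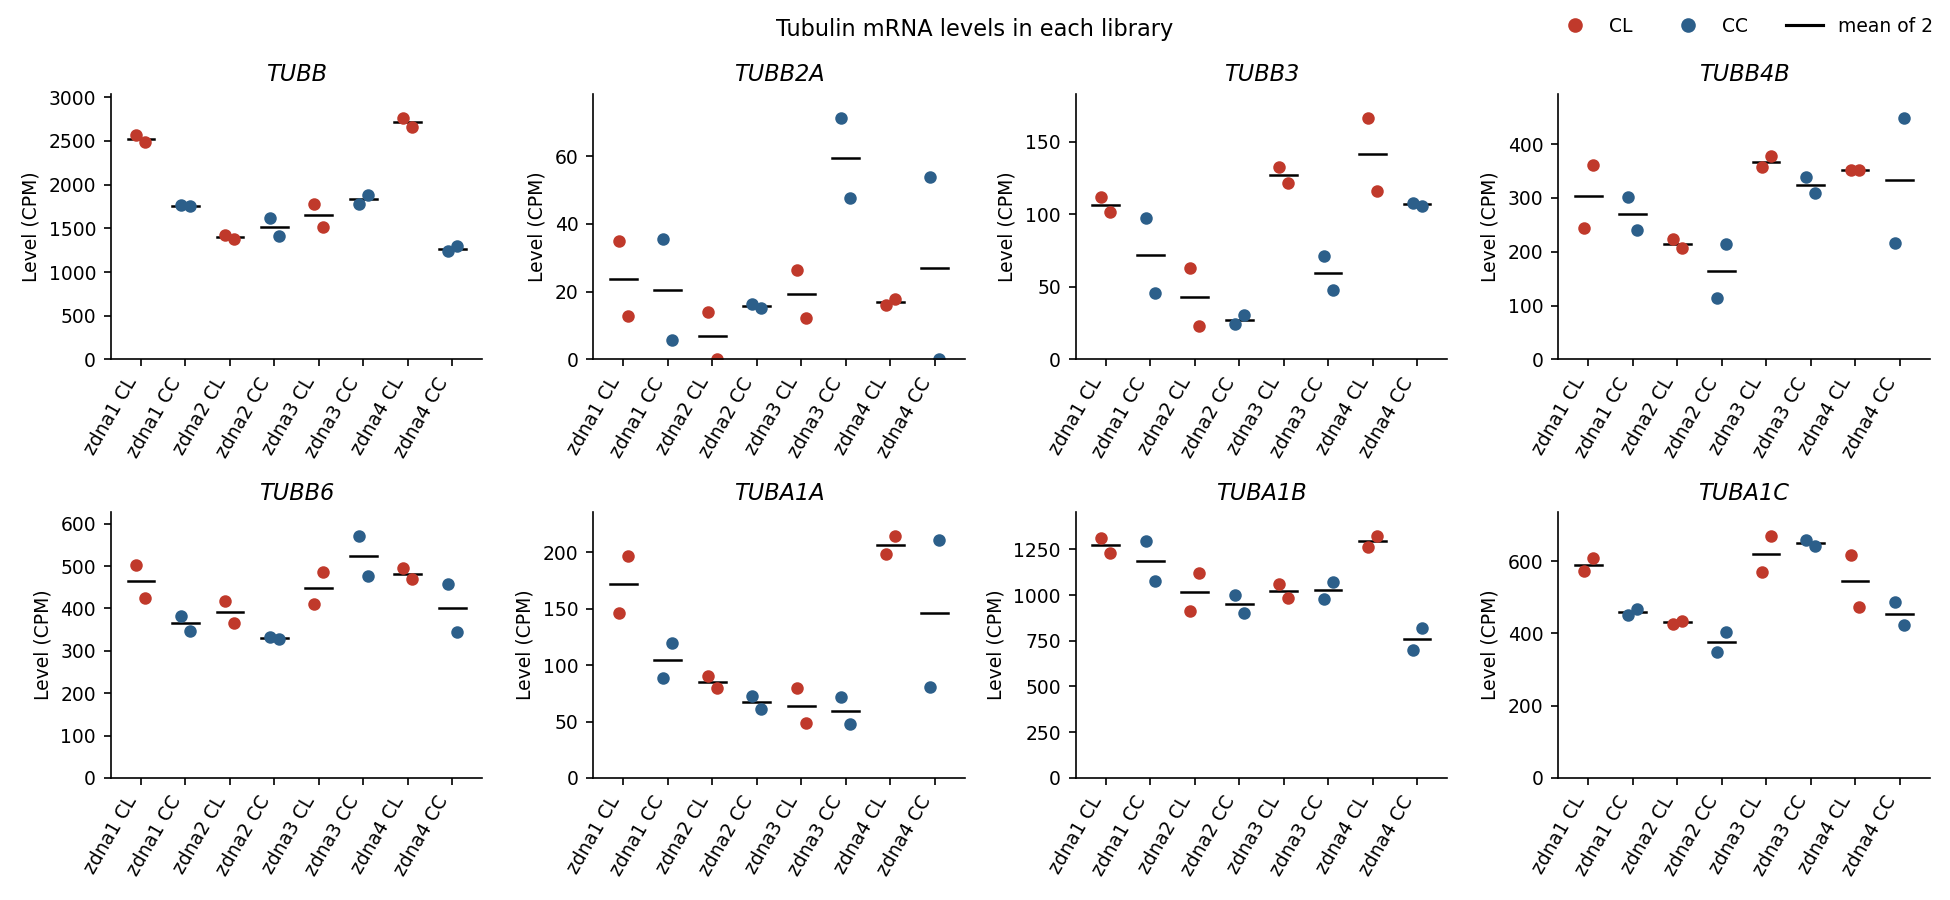
Level of each tubulin mRNA in CPM (vertical axis, from 0, scaled for each gene) in the 8 groups (horizontal axis), with 1 point per library, CL in red and CC in blue, and the mean of 2 as a line. The TUBB points of zdna1 CL and zdna4 CL lie between 2491 and 2765 CPM, above all others, and those of zdna4 CC are the lowest at 1241 and 1294 CPM.

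TUBA1B, the main alpha isotype, was higher in CL in zdna4. It stood at 1264 and 1322 CPM in zdna4 CL, against 702 and 819 CPM in zdna4 CC, and the groups did not overlap. It rose by 0.76 (SE 0.198, adjusted p = 0.0393 by limma), a fold of 1.70. In zdna1 it stood at 1313 and 1229 CPM in CL, against 1294 and 1078 CPM in CC, and in zdna2 at 914 and 1122 CPM in CL, against 998 and 901 CPM in CC. In zdna3 it stood at 1061 and 985.5 CPM in CL, against 981 and 1072 CPM in CC. The groups overlapped in these 3 numbers, and the log2 changes were 0.10 (adjusted p = 0.811), 0.09 (adjusted p = 0.980) and 0.00 (-0.0039, adjusted p = 0.999, and 0.80 on the deposited scale). The zdna4 call was lost without either zdna4 CL library and by DESeq2 (adjusted p = 0.0876), while edgeR kept it (adjusted p = 0.0121).

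Members called numbered 1 of 7 tested in zdna1, against 0.756% of all genes called (0.497% higher in CL). In zdna4 they numbered 2 of 7, against 1.17% of all genes (0.907% higher in CL). In zdna2 limma called 0 of 7 (0 with an unadjusted p under 0.05, 0 by edgeR), against 0.173% of all genes, and in zdna3 0 of 7 (0 with an unadjusted p under 0.05, 0 by edgeR), against 0.0864%. The median log2 change of the 7 was 0.35 in zdna1 CL over CC, where the median of all genes was 0.00 (-0.0037), and 0.35 in zdna4, where it was 0.08. It was 0.24 in zdna2 and -0.01 (-0.0051) over all genes there, and 0.00 (-0.0039) in zdna3 with 0.06 over all genes. Positive changes numbered 7 of 7 in zdna1 and zdna4, 6 of 7 in zdna2 and 3 of 7 in zdna3 (7 of 7 on the deposited scale), while the share of all genes with a positive change was 49.8% in zdna1, 55.8% in zdna4, 49.4% in zdna2 and 55.0% in zdna3.

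The zdna4 comparison sets the deepest libraries, those of CL, against the shallowest, those of CC, and rests on 95 TUBB reads and 57 TUBA1B reads in zdna4 CC. At the density of olfactory receptor reads in zdna4 CC, 0.770 and 0.437 reads would fall on the exons of these 2 genes. These figures count only background reads added to the exons of TUBB and TUBA1B. Background reads also enter the library total that scales every level in zdna4 CC. Their part in the differences was not tested.

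The other 5 tested members did not pass the test between arms in any number in the fit reported. TUBB3 stood at 133 and 122 CPM in zdna3 CL, against 71.3 and 47.6 CPM in zdna3 CC, a log2 change of 1.00 (SE 0.656, adjusted p = 0.887) resting on 20 reads in CL and 6 in CC. TUBA1C stood at 573 and 608 CPM in zdna1 CL, against 452 and 468 CPM in zdna1 CC, a log2 change of 0.35 (SE 0.165, adjusted p = 0.426). TUBA1A stood at 147 and 196 CPM in zdna1 CL, against 88.7 and 120 CPM in zdna1 CC, a log2 change of 0.67 (SE 0.338, adjusted p = 0.474). In each of these 3 cases the groups did not overlap and the difference missed the threshold. TUBB6 was at 503 and 425 CPM in zdna1 CL, against 381 and 348 CPM in zdna1 CC, also without overlap (log2 change 0.34, SE 0.174, adjusted p = 0.492). TUBB4B, an isotype of broad expression, overlapped, at 244 and 361 CPM in zdna1 CL, against 301 and 240 CPM in zdna1 CC (log2 change 0.14, adjusted p = 0.874).

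**Figure D4:**
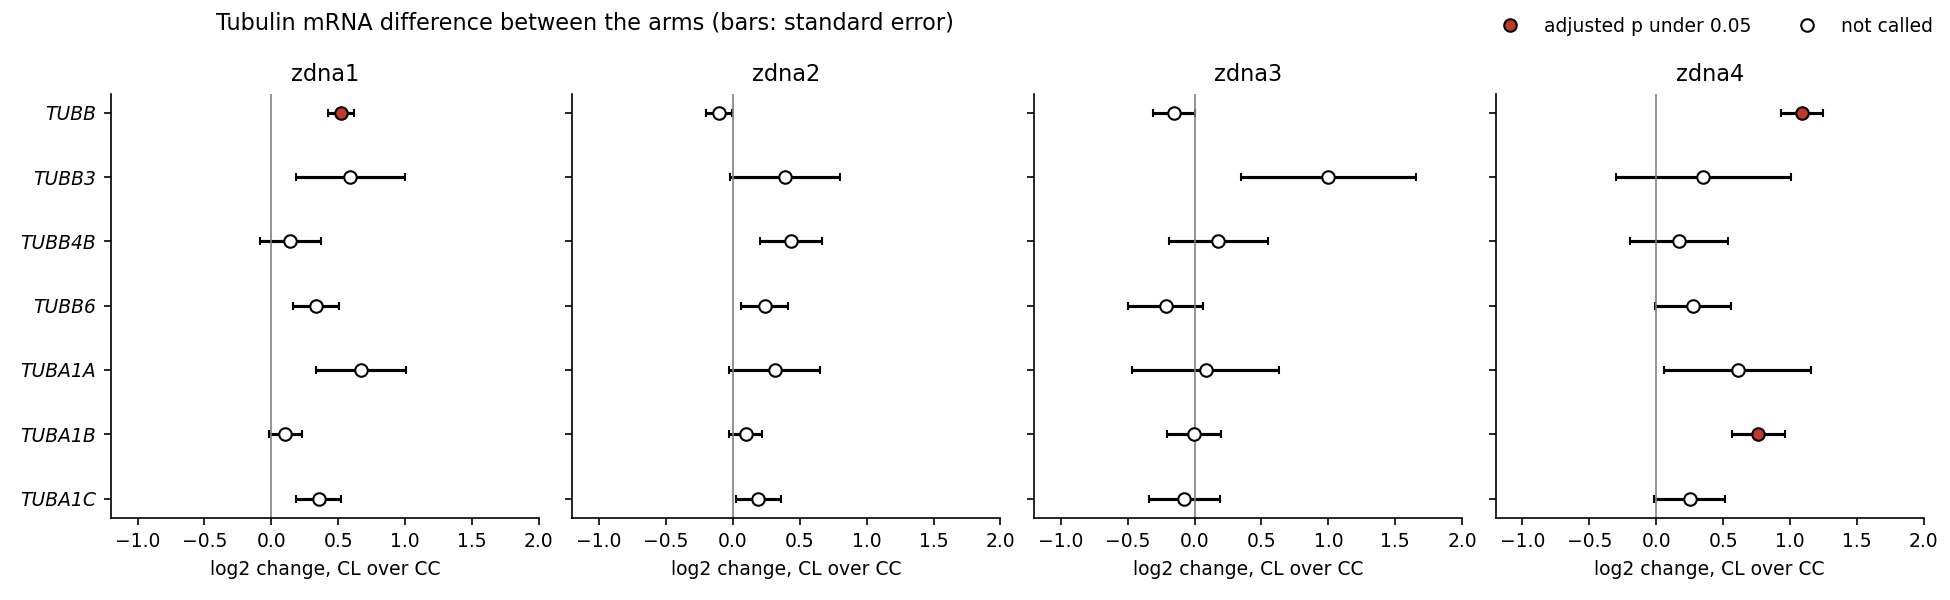
Difference between arms for the 7 tested tubulin genes, as log2 change of CL over CC (horizontal axis) with bars of 1 standard error, in 1 panel per number; filled points have an adjusted p under 0.05 by limma. Filled points are TUBB at 0.52 in zdna1, and TUBB at 1.09 and TUBA1B at 0.76 in zdna4; TUBB in zdna3, at -0.16 here, lies at 0.66 on the deposited scale.

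When the 4 differences were averaged, TUBB was the member that rose in CL, by 0.34 (SE 0.0649, adjusted p = 0.00256 by limma), and 1 of 7 tested members was called, against 0.432% of all genes (0.345% higher in CL). TUBA1B stood at 0.24 (SE 0.0826, adjusted p = 0.256) and TUBB3 at 0.58 (SE 0.273, adjusted p = 0.497). All 7 changes were positive, with a median of 0.24, while the median of all genes was 0.05. Without the 4 zdna4 libraries the TUBB average was 0.08 (adjusted p = 0.824), so that the averaged call rested on zdna4.

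The promoters of the 2 genes called between arms are shown because promoters are where MYC, named in the series title, binds the E-box. They hold the 250 bases before the transcription start from the RefSeq promoter table (GRCh38.p14), written 5′ to 3′ on the gene's own strand, plus for TUBB and minus for TUBA1B. Capitals mark matches, on either strand, to the E-box CACGTG, the CCAAT box CCAAT, the TATA box TATAAA and the GC box GGGCGG.
TUBB promoter 1, chr6:30720102-30720351: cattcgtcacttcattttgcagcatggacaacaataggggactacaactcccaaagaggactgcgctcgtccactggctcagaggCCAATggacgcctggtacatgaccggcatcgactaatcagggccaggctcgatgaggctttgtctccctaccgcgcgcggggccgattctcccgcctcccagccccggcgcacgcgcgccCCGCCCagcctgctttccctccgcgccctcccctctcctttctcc
TUBB promoter 2, chr6:30721388-30721637: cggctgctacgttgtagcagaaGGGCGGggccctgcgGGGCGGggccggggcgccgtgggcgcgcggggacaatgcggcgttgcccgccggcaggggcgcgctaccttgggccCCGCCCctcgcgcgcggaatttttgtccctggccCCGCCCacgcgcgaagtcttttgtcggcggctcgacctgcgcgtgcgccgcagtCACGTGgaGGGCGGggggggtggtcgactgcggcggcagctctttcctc
TUBA1B promoter, chr12:49131396-49131645: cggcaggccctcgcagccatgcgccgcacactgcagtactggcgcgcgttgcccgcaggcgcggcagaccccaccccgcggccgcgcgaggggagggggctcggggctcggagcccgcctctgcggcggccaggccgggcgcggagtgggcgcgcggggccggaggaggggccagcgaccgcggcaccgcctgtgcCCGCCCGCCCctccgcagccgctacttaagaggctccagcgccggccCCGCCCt
The second TUBB promoter held an E-box 49 bases before the start and 5 GC boxes, the first a CCAAT box and a GC box, and that of TUBA1B held 3 GC boxes, of which 2 overlap. The E-box occurred in 6.34% of the 35116 promoters of this length, the CCAAT box in 32.0%, the TATA box in 10.7% and the GC box in 42.6%. Of the 13 promoters that the 8 tubulin genes have in the table, the E-box occurred in 2 (of TUBB and TUBA1C), the CCAAT box in 8, the TATA box in 1 (of TUBB2A) and the GC box in 7. TUBA1C, with an E-box in 1 of its 3 promoters, was not called in any comparison of arms in the fit reported. On the deposited scale limma called it in zdna3 (adjusted p = 0.0215) and in the averaged arms (adjusted p = 7.12e-04). Whether an E-box has a part in any difference was not tested. A match describes letters and no binding was measured here.

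Between numbers, with both arms averaged, most tubulins differed. Of the 7 tested members, 6 passed the test of any difference between numbers, against 8.85% of all genes. TUBB6 was the exception (adjusted p = 0.257, and 1.43e-11 on the deposited scale). TUBB passed with an adjusted p of 5.87e-07, TUBB4B with 0.00281, TUBB3 with 0.00298, TUBA1A with 0.0105, TUBA1C with 0.0144 and TUBA1B with 0.0382. The TUBA1B call was lost in 9 of 28 alternatives and the TUBA1C call in 6, both by DESeq2 among them (adjusted p = 0.239 for TUBA1B and 0.0738 for TUBA1C), and with no filter on low values 1 of the 7 members was called. The pairs of numbers below share libraries where they share a number, so their values stand side by side and are not separate evidence.

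In zdna2 over zdna1, 4 members fell and 0 rose, against 2.5% of all genes called (1.71% lower). TUBB stood at 1424, 1380, 1614 and 1413 CPM in zdna2, against 2563, 2491, 1764 and 1751 CPM in zdna1. It fell by 0.53 (SE 0.0686, adjusted p = 9.58e-08), and every zdna2 library was below every zdna1 library. TUBB3 stood at 62.8, 22.9, 24.3 and 30.6 CPM in zdna2, against 112, 101, 97.5 and 45.6 CPM in zdna1. It fell by 1.15 (SE 0.289, adjusted p = 0.0169) with 1 zdna2 library above the lowest of zdna1. The zdna2 levels rest on 13 TUBB3 reads in CL and 7 in CC. TUBB4B fell by 0.60 (SE 0.163, adjusted p = 0.0287) with no overlap, at 223, 206, 114 and 214 CPM in zdna2, against 244, 361, 301 and 240 CPM in zdna1. TUBA1B fell by 0.32 (SE 0.0873, adjusted p = 0.0309) with overlap. The median of the 7 was -0.53 and that of all genes 0.00 (0.0037). In the CC arm alone limma called 0 of these falls, and the TUBB change there was -0.22 (adjusted p = 0.733). Calls numbered 1 without zdna1 CC replicate 1, zdna1 CL replicate 2 or zdna2 CC replicate 1, 2 without zdna1 CL replicate 1 or either zdna2 CL library, and 3 without zdna1 CC replicate 2 or zdna2 CC replicate 2.

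In zdna3 over zdna2, TUBA1C and TUBB4B rose, 2 of 7 tested, against 6% of all genes called (2.81% higher). TUBA1C stood at 570, 669, 660 and 643 CPM in zdna3, against 426, 435, 349 and 405 CPM in zdna2, and rose by 0.64 (SE 0.158, adjusted p = 0.00631). TUBB4B stood at 358, 377, 339 and 310 CPM in zdna3, against 223, 206, 114 and 214 CPM in zdna2, and rose by 0.88 (SE 0.218, adjusted p = 0.00727). All zdna3 libraries were above all zdna2 libraries for both genes. On the deposited scale both changes turned round, to -0.86 and -0.59, where the median of all genes stood at -1.36. Limma called 0 members within either arm alone, 1 without zdna2 CC replicate 1, which ended the TUBB4B call, and 4 without either zdna3 CC library.

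In zdna4 over zdna2, TUBB3, TUBB4B and TUBB rose, 3 of 7, against 2.48% of all genes called (1.23% higher). TUBB3 stood at 166, 116, 108 and 106 CPM in zdna4, above every zdna2 library, and rose by 1.63 (SE 0.387, adjusted p = 0.0109), a fold of 3.09. This rests on 13 TUBB3 reads in zdna2 CL, 7 in zdna2 CC and 8 in zdna4 CC. TUBB4B rose by 0.82 (SE 0.218, adjusted p = 0.0239) and stood at 352, 353, 216 and 449 CPM in zdna4, with 1 library inside the zdna2 range. TUBB rose by 0.35 (SE 0.0920, adjusted p = 0.0239) on the average of the arms, but its change in the CC arm alone was -0.25 (adjusted p = 0.724). Calls numbered 0 without zdna4 CL replicate 1 or zdna2 CL replicate 2, 1 without zdna4 CL replicate 2 or zdna2 CL replicate 1, and 6 without zdna4 CC replicate 2.

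In zdna4 over zdna3, TUBA1A rose, 1 of 7, against 4.75% of all genes called (1.84% higher). It stood at 198, 214, 81.0 and 211 CPM in zdna4, against 79.6, 48.7, 71.3 and 47.6 CPM in zdna3, with every zdna4 library above every zdna3 library. The change was 1.31 (SE 0.386, adjusted p = 0.0345), a fold of 2.49, and zdna3 held 16 TUBA1A reads in all. DESeq2 did not call it (adjusted p = 0.0659), and 0 members were called without zdna3 CL replicate 2 or either zdna4 CL library.

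In zdna3 over zdna1 limma called 0 of 7 members, against 4.49% of all genes, with 3 at an unadjusted p under 0.05 and 1 called by edgeR, TUBB. TUBB stood at -0.28 there (SE 0.0917, adjusted p = 0.0666 by limma and 0.0303 by edgeR), and 2 members were called without zdna3 CL replicate 1 or either zdna3 CC library. In zdna4 over zdna1 limma called 0 of 7, against 0.691% of all genes, with 2 at an unadjusted p under 0.05, 0 by edgeR and 1 without zdna4 CC replicate 2. The TUBB average there joined arms that lay apart: CL was at 2765 and 2657 CPM in zdna4, against 2563 and 2491 CPM in zdna1, and CC at 1241 and 1294 CPM in zdna4, against 1764 and 1751 CPM in zdna1.

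**Figure D5:**
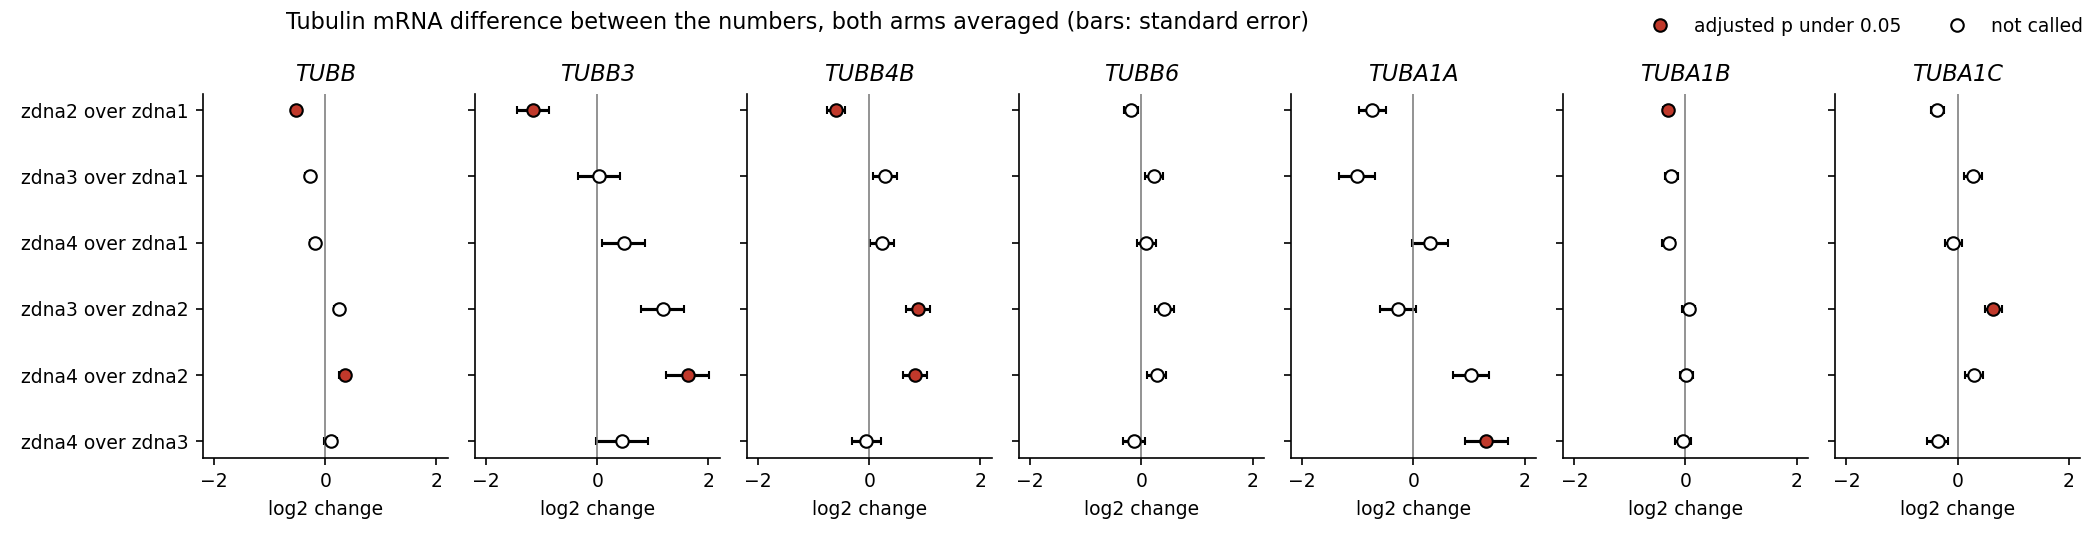
Difference between numbers for the 7 tested tubulin genes, as log2 change with both arms averaged (horizontal axis) and bars of 1 standard error, for the 6 pairs of numbers (vertical axis); filled points have an adjusted p under 0.05 by limma. In zdna2 over zdna1 4 points are filled, all below 0, and in zdna3 over zdna2 TUBB4B at 0.88 and TUBA1C at 0.64 are filled, which lie at -0.59 and -0.86 on the deposited scale.

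TUBB6, a beta isotype found in many non-neuronal tissues, was the steadiest of the tested members in CPM. Its group means ran between 331 CPM in zdna2 CC and 523 CPM in zdna3 CC, and its highest library was 1.74-fold its lowest. In the fit reported it was called in 0 of the comparisons by limma and 0 by edgeR, with an unadjusted p under 0.05 by limma in 1. On the deposited scale limma called it in the averaged arms (adjusted p = 0.00247) and for any difference between numbers (adjusted p = 1.43e-11). It was also called there in zdna3 over zdna1, zdna3 over zdna2 and zdna4 over zdna3. The highest library was 2.23-fold the lowest for TUBB, 1.88-fold for TUBA1B, 1.92-fold for TUBA1C, 3.95-fold for TUBB4B, 4.50-fold for TUBA1A and 7.27-fold for TUBB3. The last 2 genes had as few as 2 reads in a library.

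Ordered by group mean, TUBB was highest in zdna4 CL (2711 CPM), followed by zdna1 CL, zdna3 CC, zdna1 CC, zdna3 CL, zdna2 CC, zdna2 CL and zdna4 CC (1268 CPM). In that order zdna2 CL overlapped zdna2 CC, zdna2 CC overlapped zdna3 CL, and zdna3 CL overlapped zdna1 CC, while the other neighbours did not overlap. TUBA1B too was highest in zdna4 CL (1293 CPM) and lowest in zdna4 CC (760.2 CPM), with the 3 groups zdna1 CC, zdna1 CL and zdna4 CL overlapping in a row. TUBB3 was highest in zdna4 CL (141 CPM) and lowest in zdna2 CC (27.4 CPM), TUBA1C highest in zdna3 CC (651 CPM) and lowest in zdna2 CC (377 CPM), and TUBA1A highest in zdna4 CL (206 CPM) and lowest in zdna3 CC (59.5 CPM). TUBB4B was highest in zdna3 CL (368 CPM) and lowest in zdna2 CC (164 CPM).

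Over the 16 libraries, levels on the log2 scale went together most for TUBB with TUBA1B (Pearson r = 0.836), TUBB6 with TUBA1C (r = 0.823) and TUBB3 with TUBB4B (r = 0.729). TUBB2A with TUBA1A had the lowest value (r = -0.346). Of 914 other genes of at least 200 CPM, those most like the mean of the 8 members were LASP1 (r = 0.811) and DBN1 (r = 0.797), both actin-binding proteins, RMRP, the RNA of RNase MRP (r = 0.794), RNA5S9, a 5S ribosomal RNA (r = 0.785), and SFN, a 14-3-3 protein (r = 0.781). Each member weighs equally in that mean, including TUBB2A with 0 to 5 reads per library and TUBB3 and TUBA1A with as few as 2. All these correlations describe 16 points that share their library totals and groups.

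Of the 25 other rows named TUB, 4 were strong enough to test and 0 were called by limma in the average over numbers (0 at an unadjusted p under 0.05, 0 by edgeR). TUBA3C, an alpha-tubulin gene, had 336 reads and averaged 106 CPM per kb, TUBG1, the gamma-tubulin that starts microtubules, had 216 reads, and the gamma-ring proteins TUBGCP3 and TUBGCP2 had 157 and 113. In zdna4 TUBA3C stood at 163 and 223 CPM in CL, against 81.0 and 106 CPM in CC, without overlap (log2 change 0.97, SE 0.456, adjusted p = 0.421). Of 11 genes of the gamma-tubulin ring 4 were tested and 0 were called by limma in that average (0 at an unadjusted p under 0.05, 0 by edgeR). TUBB2B, which shares sequence with TUBB2A, had 78 reads in all.

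Genes that fold tubulin were read beside the members. All 8 subunits of the CCT ring were tested, and 3 differed between numbers (TCP1, CCT5 and CCT8), against 8.85% of all genes, where edgeR called 4. In zdna2 over zdna1, where 4 tubulins fell, TCP1 rose by 0.55 (adjusted p = 0.0265) and CCT6A by 0.44 (adjusted p = 0.0497), 2 of 8 against 2.5% of all genes, and the median of the ring was 0.21. CCT5 averaged 1018 CPM in zdna3 CL and 1044 CPM in zdna3 CC, against 720 CPM in zdna1 CL and 687 CPM in zdna1 CC, and rose by 0.55 in zdna3 over zdna1 (adjusted p = 0.00518), -1.09 on the deposited scale, 1 of 8 against 4.49% of all genes. CCT5 fell by 0.64 in zdna4 over zdna3 (adjusted p = 0.00762), 0.96 on the deposited scale, 1 of 8 against 4.75% of all genes. CCT8 fell by 0.63 in zdna3 over zdna2 (adjusted p = 0.0329), 1 of 8 against 6% of all genes. DESeq2 called the CCT5 changes and not those of TCP1, CCT6A or CCT8 (adjusted p = 0.0775, 0.113 and 0.150). In the average of the arms 0 of 8 were called by limma (0 at an unadjusted p under 0.05, 0 by edgeR). Of 7 folding cofactors 3 were tested, TBCA, TBCB and TBCD, and 0 were called in that average (0 at an unadjusted p under 0.05, 0 by edgeR). Of 6 prefoldin subunits 4 were tested and 0 were called (1 at an unadjusted p under 0.05, 0 by edgeR), PFDN2 having the highest level with 126 CPM.

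The genes of autoregulation were weak: TTC5 averaged 28.8 CPM, SCAPER 31.6 CPM and CNOT11, the 1 that was tested, 63.0 CPM. CNOT11 was called by limma in 0 comparisons and by edgeR in 0, with an unadjusted p under 0.05 in 3. Of the tubulin-modifying enzymes 4 of 11 were tested (TTL, TTLL4, TTLL5 and TTLL12) and 0 were called by limma in the averaged arms or between numbers (0 at an unadjusted p under 0.05, 0 by edgeR in either). Of 20 microtubule-associated genes, 13 were tested. Of these, 2 were called in zdna4 CL over CC, against 1.17% of all genes, and 1 in zdna2 over zdna1, against 2.5%. In zdna3 over zdna2 1 was called, against 6%, and 1 for any difference between numbers, against 8.85%, both near the share of all genes. Among the called genes, MAP1A is a microtubule-binding protein best known from neurons. It averaged 258 ± 24.1 CPM in zdna4 CL and 39.9 ± 18.3 CPM in zdna4 CC (SD, n = 2 each) and rose by 2.47 (SE 0.593, adjusted p = 0.0253). Its lowest level, 27.0 CPM, is that of 1 read in zdna4 CC replicate 1, so this change rests on very few reads in zdna4 CC. STMN1, a protein that binds tubulin dimers, averaged 367 ± 30.3 CPM in zdna4 CL and 146 ± 92.2 CPM in zdna4 CC and rose by 1.41 (adjusted p = 0.0495), which edgeR did not call (adjusted p = 0.0712). DESeq2 called neither of these (adjusted p = 0.156 for MAP1A and 0.322 for STMN1). MAP1A fell by 1.33 in zdna2 over zdna1 (adjusted p = 7.93e-04) and passed the test of any difference between numbers (adjusted p = 0.00211 by limma). CLIP1, a protein of growing microtubule ends, fell by 0.86 in zdna3 over zdna2 (adjusted p = 0.0315), which DESeq2 did not call (adjusted p = 0.150).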

How the data were processed

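RNA was extracted with Trizol and made into libraries with an Abclonal kit, per the labels' protocols. Trim Galore 0.6.6, STAR and bedtools 2.29.2, with the builds hg19 and dm6, are named in the submitters' processing notes. Per the file headers, reads were counted as pairs over exons by gene with featureCounts 2.0.1, with no strand option, on hg19 plus a contig named after the number. The deposited signal values are these counts multiplied by 1 constant per library, between 0.115 and 0.802 per read. How the authors set the constant is not given in the sources used here. Whole reads were recovered by dividing by it: 99.99% to 100% of values above 0 in a library came out within 0.1 read of a whole number.

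Library totals were normalised by TMM (edgeR 4.0.16). The main test was limma 3.58.1 in R 4.3.3, two-sided, on log2 of CPM plus a pseudocount of 10, for the 4632 genes averaging 50 CPM or more over all libraries, with 8 group means, array weights by group and a mean-variance trend. P-values were adjusted by Benjamini-Hochberg over all 4632 genes with a threshold of 0.05. The deposited scale, library totals, other filters and pseudocounts, edgeR's quasi-likelihood test on the recovered reads, DESeq2 1.42.0, a replicate block, single arms and each library left out were alternatives. Limits for 0 reads use 3 reads and cover counting error only. All 8 listed genes were named, with other genes named by list membership or by the 5 highest correlations with the members' mean among genes of at least 200 CPM. The members and lists were chosen with earlier results of these data known. Libraries of a group were kept as 2 samples each. The contig was left out of every total. Tables were joined and drawn with Python 3.11.15, numpy 2.4.6, pandas 2.3.3, scipy 1.17.1, matplotlib 3.10.9 and biopython 1.88.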

Additional observations from a re-analysis of the deposited data

Results flagged for a closer look

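The difference between CL and CC in TUBB was not the same in the 4 numbers: the test of unequal differences gave an adjusted p of 1.03e-05 by limma. The log2 changes were 0.52 in zdna1, -0.11 in zdna2, -0.16 in zdna3 (0.66 on the deposited scale) and 1.09 in zdna4. The adjusted p was 6.19e-08 by edgeR and at most 0.0122 over 28 alternatives. TUBB was the only one of the 7 tested tubulins to pass this test by limma in the fit reported, and without zdna4 CC replicate 2 there were 2. The zdna4 CC libraries were the shallowest, with 39335 and 40886 reads in human genes, and their part in this result was not tested apart from the zdna4-free fit, in which 1 tubulin still passed.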

How the results depend on the processing

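Of 21 tubulin results past the threshold, 3 kept their call under every alternative run, all of them TUBB: zdna4 CL over CC, unequal differences, and any difference between numbers. Depth sets the precision, since 1 read stood for up to 25.4 CPM before TMM scaling. Whether it accounts for the other losses was not tested.

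On the deposited scale the median of all genes moved to 0.72 in zdna3 CL over CC, -1.48 in zdna3 over zdna1, -1.36 in zdna3 over zdna2 and 1.38 in zdna4 over zdna3, and to 0.43 in zdna4 and 0.34 in the averaged arms. Signs turned there for TUBB (0.66), TUBB6 (0.57), TUBA1B (0.80) and TUBA1C (0.72) in zdna3 CL over CC. In zdna3 over zdna1 they turned for TUBB3 (-1.33), TUBB4B (-1.31), TUBB6 (-1.38), TUBA1C (-1.34) and CCT5 (-1.09). In zdna3 over zdna2 they turned for TUBB (-1.28), TUBB3 (-0.06), TUBB4B (-0.59), TUBB6 (-1.08), TUBA1B (-1.46) and TUBA1C (-0.86), and in zdna4 over zdna3 for TUBB4B (1.49), TUBB6 (1.43), TUBA1B (1.54), TUBA1C (1.22) and CCT5 (0.96). TUBB in zdna4 over zdna2 turned to -0.25 in the CC arm alone.

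Tubulins called on the deposited scale numbered 5 in zdna3 CL over CC, 7 in the averaged arms, 2 for unequal differences, 7 in zdna3 over zdna1, 6 in zdna3 over zdna2 and 7 in zdna4 over zdna3. With no filter they numbered 1 for any difference between numbers, 1 in zdna2 over zdna1, 1 in zdna3 over zdna1, and 0 in zdna3 over zdna2, zdna4 over zdna2 and zdna4 over zdna3. A filter of 20 CPM gave 2 in zdna2 over zdna1, 1 in zdna3 over zdna1 and 1 in zdna4 over zdna2, and library totals gave 2 in zdna2 over zdna1 and 2 in zdna3 over zdna1. A pseudocount of 2 gave 1 in zdna4 CL over CC and 0 in zdna4 over zdna3, one of 50 gave 1 in zdna3 over zdna1, and no array weights gave 1 in zdna2 over zdna1 and 1 in zdna3 over zdna1. DESeq2 gave 1 in zdna4 CL over CC, 1 in zdna2 over zdna1 and 0 in zdna4 over zdna3, edgeR 1 in zdna3 over zdna1, the 4 zdna4 libraries alone 1, and the averaged arms without zdna4 0. The CL arm alone gave 2 in zdna2 over zdna1, 1 in zdna3 over zdna1, 0 in zdna3 over zdna2, 5 in zdna4 over zdna2 and 2 in zdna4 over zdna3, and the CC arm alone 0 in zdna2 over zdna1, zdna3 over zdna2, zdna4 over zdna2 and zdna4 over zdna3. The cause of these moves was not tested.

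Leaving out 1 library gave 0 to 1 in zdna1 CL over CC, 0 to 0 in zdna2 and in zdna3, 1 to 3 in zdna4, 1 to 2 in the averaged arms and for unequal differences (2 without zdna4 CC replicate 2 in both), and 4 to 6 for any difference between numbers. It gave 1 to 3 in zdna2 over zdna1, 0 to 2 in zdna3 over zdna1, 0 to 1 in zdna4 over zdna1, 1 to 4 in zdna3 over zdna2, 0 to 6 in zdna4 over zdna2 and 0 to 1 in zdna4 over zdna3.

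No pairing of the libraries by replicate number was seen: over 28 pairs of groups the correlation of deviations ran between -0.0195 and 0.0431. Counting error at this depth can hide a pairing, so the check cannot show that there is none. A replicate block gave 3 tubulins in zdna3 over zdna2, against 2 without it, adding TUBB3 at 1.18 (adjusted p = 0.0466 by limma), and moved no other count of tubulins. It ended the calls of CCT8 for any difference between numbers (adjusted p = 0.0512) and CCT6A in zdna2 over zdna1 (adjusted p = 0.0508).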
